A study of Mus musculus with 6 samples.

Results

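The comparison set both kinds of intraepithelial lymphocyte (IEL) that carry CD8 as an alpha-alpha dimer against the kind that carries it as an alpha-beta dimer. All 6 arrays of the series entered it. The CD8aa side held 4 arrays, those of TCRab CD8aa and TCRgd CD8aa IEL, and the other side the 2 arrays of TCRab CD8ab IEL. Cells were sorted from the small intestine of untreated C57BL/6 mice under 8 weeks old, with 20 mice pooled in each of 2 experiments. Every experiment gave 1 array per subset, and arrays are named below by subset and experiment number, as in TCRab CD8ab 2. No allele or treatment set the groups apart, and the sort gates were not given in the sources used here. Some titles write TCRgb where the source descriptions write TCRgd, and the latter were followed. Because all mice of an experiment were pooled, the data hold no spread between mice, and 2 arrays of the TCRab CD8ab subset limit the precision of every value.

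IEL are T cells that lie between the epithelial cells of the gut lining. CD8ab is the coreceptor of conventional cytotoxic T cells, whereas CD8aa is typical of the unconventional, or natural, IEL, which come to the gut from the thymus early and which bear either type of T cell receptor. Natural IEL are known for low levels of classical T cell surface molecules and for receptors shared with natural killer (NK) cells. The programme common to both CD8aa subsets was taken as the probe sets for which all 4 within-experiment differences, each CD8aa array minus the TCRab CD8ab array of its experiment, had the same sign. Of 8299 probe sets bright enough to test, 2645 (31.9%) met this, 1127 (13.6%) as higher and 1518 (18.3%) as lower in CD8aa, and they stood for 2219 of 6109 named genes. Without the filter on dim probe sets 3084 met it. The 2 differences of an experiment share its TCRab CD8ab array, so they tend to agree in sign. Probe sets can therefore meet the rule without a difference between the groups, and how many did was not tested. Most differences of the 2645 probe sets were small. All 4 were at least 1 on the log2 scale for 96 probe sets higher (1.16%) and 88 lower (1.06%), and at least 2 for 23 (0.277%) and 21 (0.253%).

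Signals are MAS5 intensities on a log2 scale, on which a difference of 1 is a doubling. Every value in the lowest 20% was raised to the 20th percentile, so 3.94 is a floor at which the level is unknown, and a fold against it is a lower bound. Differences below are the fitted mean of both CD8aa subsets minus TCRab CD8ab, with its SE, fitted by limma with a block for the experiment. With 4 arrays against 2, 109 probe sets (1.31%) passed an adjusted p of 0.05, 64 higher (0.771%) and 45 lower (0.542%), which stood for 56 and 41 named genes. All 109 had 4 differences of the same sign. The smallest fitted difference among them was 1.11 in size, and single within-experiment differences were smaller for some, such as 0.79 for Plcg2. For 57 of those higher and 36 of those lower, the CD8aa arrays did not overlap the TCRab CD8ab arrays. Over all probe sets tested, 443 (5.34%) lay wholly above and 512 (6.17%) wholly below. The other 16 overlapped across experiments but not within them.

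The count of called probe sets depended on the block and on the fit. Without the block limma called 2 (0.0241%), Itih5 and Cd6, with 323 probe sets at an unadjusted p under 0.05. Without the filter it called 0 (smallest adjusted p = 0.0709, 1237 at unadjusted p under 0.05), and without the intensity trend 29. It called 33 without TCRab CD8aa 1 or TCRab CD8aa 2, 154 and 28 without TCRab CD8ab 1 and TCRab CD8ab 2, and 44 and 89 without TCRgd CD8aa 1 and TCRgd CD8aa 2. Without a TCRab CD8ab array, the other one was assumed to vary like the CD8aa arrays. Experiment 1 alone gave 128 and experiment 2 alone 16, but there TCRab CD8ab was 1 array and the only spread was that between the 2 CD8aa arrays. Of the 109, 20 passed with each of the 6 arrays left out in turn and 16 under none of these omissions, counting probe sets that fell under the filter as not passing. The number of the 109 that stayed called was 33 without either TCRab CD8aa array, 50 and 24 without TCRab CD8ab 1 and 2, and 43 and 78 without TCRgd CD8aa 1 and 2. All kept their direction. Of 51 called probe sets named by the rule, 15 passed with each of the 6 arrays left out in turn. These were Fcer1g, Tyrobp, Itih5, Pkp2, Adh1, Napsa, Myo6, Irf8, Cd8b1, Cd5, Cd6, Cd28, Rgs10, Irf4 and Lgals1, and the arrays that ended the call of another gene are given beside it. Just inside the threshold lay Kif11 and Plcg2 (adjusted p = 0.0482), and just outside it a probe set each of Rgs10 and Tubb5 (0.0501).

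**Figure D1:**
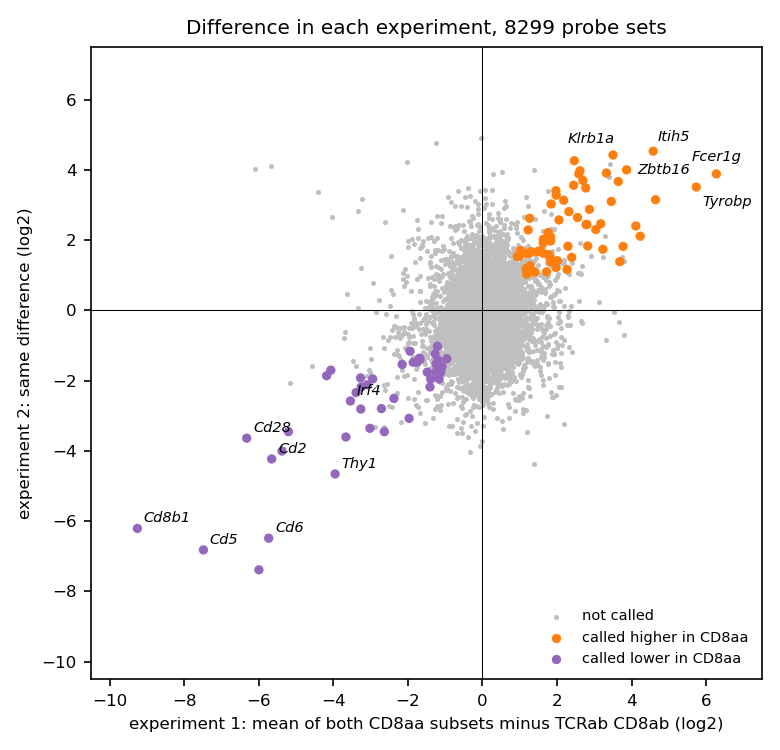
Mean log2 difference of both CD8aa subsets from TCRab CD8ab in experiment 1 (x axis) and experiment 2 (y axis) for 8299 probe sets, with called probe sets in colour. Called probe sets lie in the corners where both experiments moved the same way, which the test favours, while over all probe sets the experiments correlated weakly (Pearson's r = 0.219).

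The median signal of the arrays was 83.4 to 113, and 17.1% to 24.5% of values lay at the floor. The 3′ to 5′ ratio of the beta-actin controls ranged over 1.41 to 1.76 in experiment 1 but over 40.4 to 52.2 in experiment 2. It separated the experiments, each of which held all 3 subsets, and not the CD8 forms. Over all probe sets, which do not count as replicates, the mean difference in experiment 1 correlated with that in experiment 2 at Pearson's r = 0.219 and Spearman's rho = 0.129. The summed signal of 16 enterocyte markers was 789 to 1960 on 5 arrays and 28300 on TCRgd CD8aa 2, and that of 9 goblet or Paneth cell markers 619 to 1020 and 9800. None of the 13 enterocyte markers tested was called, and none had 4 differences of the same sign.

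Cd8b1, the CD8 beta chain, followed the labels, with log2 signals of 14.11 and 14.75 in TCRab CD8ab. It stood at 4.88 and 7.51 in TCRab CD8aa and at 4.81 and 9.58 in TCRgd CD8aa. The difference was −7.73 ± 0.70 (SE, adjusted p = 0.00186), and the CD8aa arrays of experiment 2 lay above those of experiment 1. Cd8a, the chain of both dimers, differed by 0.14 ± 0.21 (adjusted p = 0.799), with 12.69 to 14.09 over the 6 arrays. T cell receptor segments separated the subsets less sharply. Trgv4 was at 15.10 and 14.26 in TCRgd CD8aa, 13.02 and 12.61 in TCRab CD8aa and 11.56 and 10.74 in TCRab CD8ab. The brightest Trav9d-3 probe set was at 12.28 and 11.34 in TCRgd CD8aa and 13.03 to 13.84 elsewhere. The brighter Trbv1 probe set overlapped, at 14.59 and 13.30 against 13.59 to 14.94. The T cell receptor complex genes Cd3d (0.16 ± 0.25), Cd3e (0.24 ± 0.24) and Cd3g (0.43 ± 0.22) did not pass. Itgae, the integrin chain CD103 of IEL, was between 12.77 and 13.72 on every array, and Gzma and Gzmb, granzymes of IEL, were at 13.78 or higher on all. The marker genes of an intraepithelial T cell were thus present in each library.

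CD8aa IEL had far less RNA for 5 classical T cell surface receptors. Of 14 measured genes of this list 5 fell (35.7%, against 1.31% called over all probe sets) and 0 rose. In all 4 differences 9 were lower and 1 higher, against 18.3% and 13.6% over all probe sets. The median difference was −1.24, against −0.08 over all probe sets tested. Those that fell were Cd5, Cd6, Cd28, Cd2 and Thy1. This list and those below count 1 probe set per gene, the brightest, whereas shares over all probe sets count every probe set tested. The lists were chosen with earlier results of these data known, so a high share called is no independent support for a list. In bulk RNA, fewer cells that express a gene and less RNA per cell cannot be told apart, here or below.

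Cd5, which dampens signals from the T cell receptor, had log2 signals of 11.42 and 12.92 in TCRab CD8ab. It lay at the floor on both CD8aa arrays of experiment 1 and at 5.56 and 6.65 on those of experiment 2. Every CD8aa array lay below both TCRab CD8ab arrays. The difference was −7.15 ± 0.39 (SE, adjusted p = 7.93e-05), at least 142-fold for the group means. Cd6, a scavenger receptor related to Cd5, was at 12.01 and 11.39 in TCRab CD8ab, and at 6.21, 5.19, 6.35 and 4.6 in TCRab CD8aa 1 and 2 and TCRgd CD8aa 1 and 2. Its difference was −6.11 ± 0.34 (adjusted p = 7.93e-05), and a second probe set fell by 6.69 ± 0.52. Cd28, the main costimulatory receptor, was at 11.40 and 9.87 in TCRab CD8ab and at 4.83 to 6.43 in CD8aa (−4.98 ± 0.56, adjusted p = 0.00411). Its difference was −6.33 in experiment 1 and −3.64 in experiment 2, lower in CD8aa in both.

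Thy1, a surface glycoprotein of mouse T cells, was at 12.47 and 12.34 in TCRab CD8ab, 7.70 and 7.26 in TCRab CD8aa and 9.33 and 8.10 in TCRgd CD8aa (−4.31 ± 0.45, adjusted p = 0.0028). The call ended without TCRab CD8ab 2 (−3.96, adjusted p = 0.117). Cd2, an adhesion receptor, was at 11.70 and 11.63 in TCRab CD8ab. It stood at 8.03 and 8.14 in TCRab CD8aa and lower, at 4.05 and 6.66, in TCRgd CD8aa. The common difference was −4.94 ± 0.94 (adjusted p = 0.0437), and adjusted p was 0.126 without TCRab CD8aa 2, 0.149 without TCRab CD8ab 1, 0.329 without TCRab CD8ab 2 and 0.0947 without TCRgd CD8aa 2. Cd44, an adhesion receptor of activated T cells (−2.10 ± 0.49, adjusted p = 0.0928), and Ly9, of the SLAM family (−1.52 ± 0.41, adjusted p = 0.15), did not pass. At the other end of this list, Tnfrsf9, the costimulator 4-1BB, had 0.76 ± 0.25 (adjusted p = 0.25).

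Inhibitory members of the costimulation family were measured for 5 genes, of which 2 fell (40%, against 1.31% called over all probe sets) and 0 rose. Pdcd1, which encodes PD-1, was at 8.61 and 7.69 in TCRab CD8ab and between the floor and 5.35 in CD8aa (−3.64 ± 0.52, at least 12.4-fold, adjusted p = 0.0134). Without TCRab CD8aa 1 it had −3.46 and an adjusted p of 0.0671. Pdcd1, Klf2, Abcb1b and Gramd3 lay under the filter when a TCRab CD8ab array was left out and were not tested there. Ctla4, the inhibitory counterpart of Cd28, was at 13.45 and 13.56 in TCRab CD8ab, 11.95 and 12.27 in TCRab CD8aa and 11.55 and 12.13 in TCRgd CD8aa. It fell by 1.53 ± 0.22 (adjusted p = 0.0147), with no overlap, and passed with 1 of the 6 arrays left out, TCRgd CD8aa 2. Without the other arrays its adjusted p was 0.055 to 0.0939. The other 3 did not pass, with Lag3 at 0.88 ± 0.34 (adjusted p = 0.308), Cd160 at −0.61 ± 0.24 (0.316) and Cd244a, or 2B4, at 1.02 ± 0.20 (0.0555).

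Genes of recirculating naive and memory T cells had a median of −1.48 over 12 measured genes. Of these 4 fell (33.3%, against 1.31% called over all probe sets) and 0 rose. In all 4 differences 9 were lower and 1 higher, against 18.3% and 13.6% over all probe sets. Klf2, a factor that keeps T cells in the circulation, was at 10.02 and 7.94 in TCRab CD8ab. In CD8aa it was at the floor on both arrays of experiment 2 and at 5.18 and 4.10 in experiment 1. The difference was −4.69 ± 0.57, at least 25.9-fold (adjusted p = 0.00529). Klf3, a related repressor, fell by 2.72 ± 0.43 (adjusted p = 0.0213), and its second probe set by 3.19 ± 0.58, which passed only without TCRab CD8aa 2 or TCRgd CD8aa 2. Satb1, a chromatin organiser of thymocytes, fell by 2.61 ± 0.35 (0.00925), and Cxcr3, a receptor for interferon-induced chemokines, by 1.54 ± 0.25 (0.0223). The 3 were lower on all CD8aa arrays than on both TCRab CD8ab arrays. Klf3 and Cxcr3 passed without TCRgd CD8aa 2 and not without any other array (adjusted p 0.0857 to 0.114 and 0.0642 to 0.136). Satb1 did not pass without any TCRab array (0.055 to 0.0615). Il7r, the interleukin-7 receptor, had −3.61 ± 0.94 (adjusted p = 0.135), with differences of −5.63, −3.81 and −4.68 but −0.33 on TCRgd CD8aa 2.

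**Figure D2:**
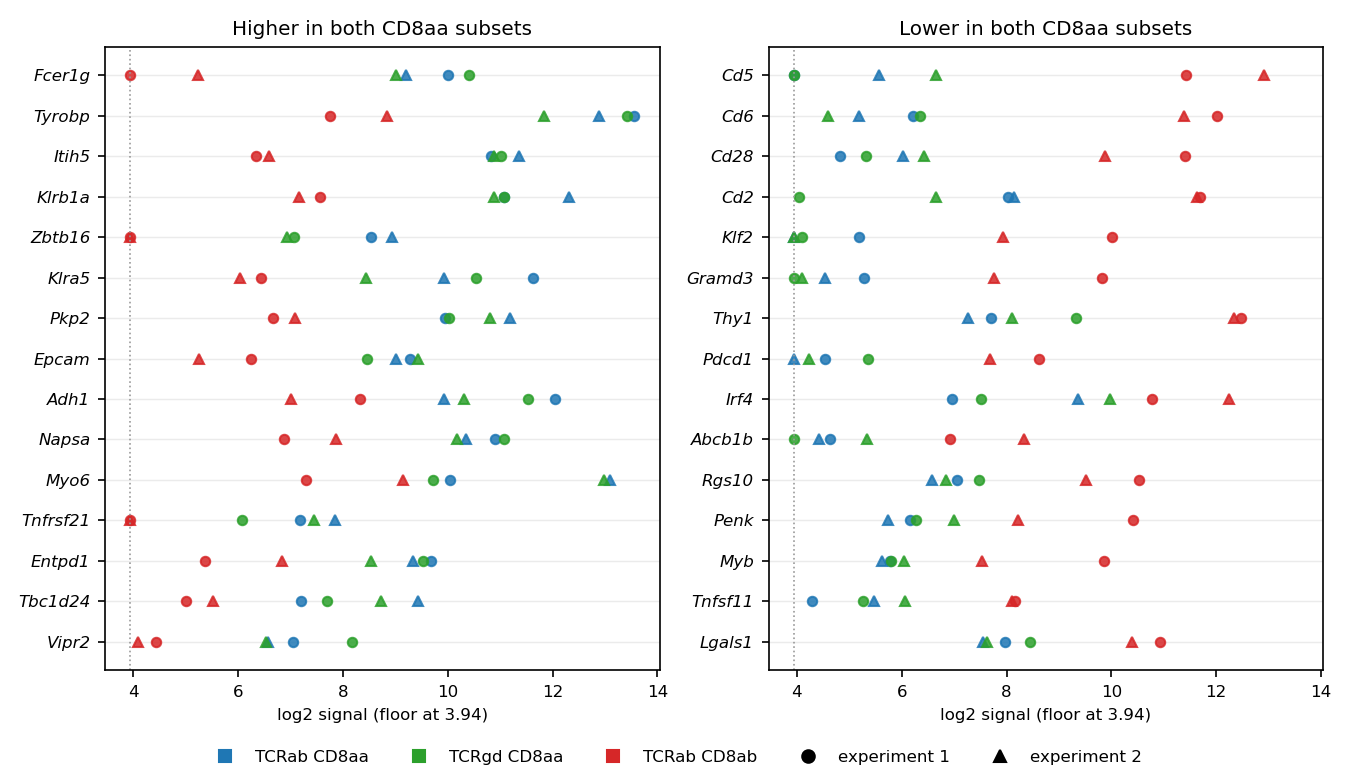
Log2 signal on each array for the 15 called genes with the largest increase and the 15 with the largest decrease in CD8aa, the sort marker Cd8b1 left out (blue TCRab CD8aa, green TCRgd CD8aa, red TCRab CD8ab; circles experiment 1, triangles experiment 2; dotted line, the floor at 3.94). The blue and green points lie together on the opposite side from the red points for each gene, with Cd2 and Zbtb16 showing the widest gaps between blue and green.

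On the other side, CD8aa IEL had more RNA for 6 receptors and adaptors typical of NK cells. Of 7 measured activating receptors and adaptors 3 rose (42.9%) and 0 fell, with 3 higher and 1 lower in all 4 differences. Of 10 inhibitory receptors 3 rose (30%) and 0 fell, with 6 higher and 0 lower in all 4. Over all probe sets 1.31% were called, and 13.6% were higher and 18.3% lower in all 4. The medians of the 2 lists were 0.95 and 1.07, against −0.08 over all probe sets.

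Fcer1g, the signalling chain shared by Fc and several activating NK receptors, was at 10.01 and 9.21 in TCRab CD8aa and at 10.41 and 9.02 in TCRgd CD8aa. TCRab CD8ab 1 lay at the floor and TCRab CD8ab 2 at 5.23. The difference was 5.08 ± 0.49, at least 33.8-fold (adjusted p = 0.00212). It was the largest increase of any called probe set. A second, dim probe set of Fcer1g fell under the filter and was not tested. It was at the floor, 4.48, the floor and 5.78 in TCRab CD8aa 1 and 2 and TCRgd CD8aa 1 and 2, against 5.41 and 5.42 in TCRab CD8ab, so that it did not show the increase. Tyrobp, the adaptor DAP12, was at 13.56 and 12.88 in TCRab CD8aa, 13.42 and 11.83 in TCRgd CD8aa and 7.75 and 8.84 in TCRab CD8ab (4.62 ± 0.48, adjusted p = 0.00276). Both were higher in each experiment, by 6.28 and 3.89 for Fcer1g and by 5.74 and 3.51 for Tyrobp. Klrb1a, a lectin-like receptor of the NK1.1 family, was at 10.89 to 12.31 in CD8aa and at 7.57 and 7.17 in TCRab CD8ab (3.96 ± 0.39, adjusted p = 0.00212). Its call ended without TCRab CD8ab 2 (3.50, adjusted p = 0.0871). Klrk1, which encodes NKG2D, did not move as one, with differences of 0.26 and −1.31 in experiment 1 and 2.96 and 1.90 in experiment 2.

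Among inhibitory receptors, Klra5, of the Ly49 family, was at 11.63 and 9.92 in TCRab CD8aa, 10.54 and 8.43 in TCRgd CD8aa and 6.44 and 6.03 in TCRab CD8ab (3.90 ± 0.51, adjusted p = 0.00872). Klra3, of the same family, was at 8.80 to 9.59 in CD8aa and at 6.07 and 6.75 in TCRab CD8ab (2.63 ± 0.32, adjusted p = 0.00529). Klrd1, or CD94, the partner chain of NKG2 receptors, was at 13.69 and 13.54, 13.47 and 14.19, and 11.95 and 12.24 in the same order (1.63 ± 0.25, adjusted p = 0.0163). The groups did not overlap for any of these. Klra5 did not pass without TCRab CD8aa 2 (adjusted p = 0.0711), TCRab CD8ab 1 (0.0642) or TCRab CD8ab 2 (0.0774), and Klra3 did not without TCRab CD8ab 2 (0.0726). Klrd1 passed without TCRab CD8aa 2 or TCRgd CD8aa 2 and not without the others (0.0606 to 0.228). Klra6 (2.71 ± 0.63, adjusted p = 0.0928) and Klra7 (2.23 ± 0.77, 0.262) were not called. Ly49 genes are close copies of one another, so their probe sets need not be separate signals.

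These receptors stood beside other NK cell markers as follows. Of 8 listed markers 6 had a probe set, and their summed signal was 15900 to 19500 on the CD8aa arrays and 3520 and 6440 in TCRab CD8ab, with Fcer1g and Tyrobp themselves among them. Ncr1, the defining NK cell receptor NKp46, was at the floor on 5 arrays and at 4.31 on TCRab CD8aa 1. Eomes, an NK and T cell factor, was lower in CD8aa in all 4 differences on both of its probe sets, and neither passed. The dimmer had −2.32 ± 0.61 (adjusted p = 0.137) and the brighter −2.33 ± 0.72 (0.22). Mast cells and myeloid cells also express Fcer1g. The summed signal of 8 mast cell markers was 234 to 847 over the 6 arrays, highest on TCRgd CD8aa 2. Mcpt4 was at 3.95 or lower on each array, whereas a probe set of Tpsb2 was at 6.04 to 7.62. On TCRgd CD8aa 2 a probe set of Mcpt1 was at 8.37 and Mcpt2 at 7.94, against 5.85 or lower and 4.57 or lower on the others. The summed signal of 13 myeloid markers was 823 to 2450. The part of mast cells and myeloid cells in the result was not tested.

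Among called signalling genes, Lat2, an adaptor related to LAT that acts in B cells, mast cells and NK cells, was at 12.14 and 12.23 in TCRab CD8aa, 12.11 and 11.96 in TCRgd CD8aa and 9.94 and 8.96 in TCRab CD8ab (2.66 ± 0.26, adjusted p = 0.00212). It passed with each of the 6 arrays left out. A second probe set rose by 2.06 ± 0.25 and did not pass without TCRab CD8ab 2 (adjusted p = 0.0557). Plcg2, the phospholipase of B and NK cell receptor signals, rose by 1.41 ± 0.27 (adjusted p = 0.0482), and Skap2, an adaptor, by 1.23 ± 0.23 (0.0408). Plcg2 passed only without TCRgd CD8aa 2 (0.114 to 0.188 otherwise) and Skap2 only without TCRab CD8ab 1 (0.0947 to 0.29 otherwise). Lat2, Plcg2 and Skap2 were singled out after their values were seen. Of 23 measured genes of proximal T cell receptor signalling, 2 rose (8.7%, against 1.31% called over all probe sets) and 0 fell. Both were kinases of the Tec family. Tec was at 10.52 to 11.05 in CD8aa and at 9.32 and 8.84 in TCRab CD8ab (1.77 ± 0.24, adjusted p = 0.00897). Txk was at 12.08 to 13.02 in CD8aa and at 10.13 and 11.37 in TCRab CD8ab (1.71 ± 0.24, adjusted p = 0.0124), so that its groups did not overlap either. Another Txk probe set did not pass (1.28 ± 0.31, adjusted p = 0.106). Tec did not pass without either TCRab CD8aa array or TCRab CD8ab 2 (0.055 to 0.12), and Txk passed only without TCRgd CD8aa 2 (0.0592 to 0.0847 otherwise). The core of the cascade did not pass, with Zap70 at 0.20 ± 0.24, Lat at −0.15 ± 0.30 and Lcp2 at 0.11 ± 0.24. Sh2d1a, the adaptor SAP of SLAM family receptors, had differences of −2.07, −2.52, −3.70 and −4.11 and narrowly missed the threshold (−3.10 ± 0.62, adjusted p = 0.0555).

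Among 25 measured lineage transcription factors 2 rose and 3 fell (20% called, against 1.31% over all probe sets). Zbtb16 encodes PLZF, a factor that directs innate-like T cells, and lay at the floor in both TCRab CD8ab arrays. It was at 8.54 and 8.93 in TCRab CD8aa and at 7.07 and 6.94 in TCRgd CD8aa, a difference of 3.93 ± 0.64, at least 15.3-fold (adjusted p = 0.0228). A second, dim probe set of Zbtb16 fell under the filter, was not tested and did not show the increase. It was at 4.66 and the floor in TCRab CD8aa, 4.4 and the floor in TCRgd CD8aa, and 4.49 and 5.31 in TCRab CD8ab. Irf8, an interferon regulatory factor of several blood cell lineages, was at 11.57 and 11.15 in TCRab CD8aa, 11.53 and 10.69 in TCRgd CD8aa and 9.0 and 8.28 in TCRab CD8ab (2.60 ± 0.23, adjusted p = 0.0015). Its relative Irf4, induced by T cell receptor signals, moved the other way. Irf4 was at 10.78 in TCRab CD8ab against 6.96 and 7.51 in CD8aa in experiment 1, and at 12.25 against 9.37 and 9.98 in experiment 2. The difference was −3.06 ± 0.32 (adjusted p = 0.0028), and the factor was higher in experiment 2 in all subsets.

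Rora, a nuclear receptor, fell by 2.60 ± 0.39 (adjusted p = 0.0163), and Myb, a factor of progenitors and memory T cells, by 2.89 ± 0.54 (0.0418). Myb was at 9.86 and 7.53 in TCRab CD8ab and at 5.62 to 6.04 in CD8aa, so that the size came from TCRab CD8ab, −4.07 in experiment 1 and −1.70 in experiment 2. Zbtb16 did not pass without any TCRab array (adjusted p 0.0749 to 0.29). Rora passed only without TCRgd CD8aa 2 (0.0562 to 0.0992 otherwise). Myb passed only without TCRab CD8ab 2 or TCRgd CD8aa 2 (0.129 to 0.173 otherwise). Prdm1, which encodes Blimp-1, had 1.23 ± 0.26 (0.0634). Gata3 (−0.15 ± 0.24), Id2 (−0.03 ± 0.22) and Ets1 (0.17 ± 0.28) did not pass.

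In each of the next lists 1 or 2 genes were called. Over all probe sets 1.31% were called, so a single call in a list of this size is already more than that share, and the counts are not results about the lists. Cytokine receptors gave 1 rise and 0 falls among 19 measured genes (5.26%). Kit, the stem cell factor receptor, was at 11.36 and 11.46 in CD8aa against 10.37 in experiment 1 and its differences in experiment 2 were 1.86 and 1.38 over a TCRab CD8ab signal of 8.63 (1.33 ± 0.25, adjusted p = 0.0408). CD8aa arrays were higher within each experiment, but the groups overlapped across experiments, and the call ended without any of the 6 arrays (0.0506 to 0.34). Il2rb, the chain shared by the interleukin-2 and interleukin-15 receptors, had 0.24 ± 0.55. Of 7 measured cytokines and growth factors 2 rose (28.6%). Fgl2, a secreted regulator of immune cells, was at 12.13 to 12.74 in CD8aa and at 10.58 and 10.38 in TCRab CD8ab (1.99 ± 0.24, adjusted p = 0.00529; 0.104 without TCRab CD8ab 2). Tgfb3, a form of TGF-beta, rose by 1.72 ± 0.32 (0.0408) and passed only without TCRgd CD8aa 2 (0.0871 to 0.177 otherwise). A second Tgfb3 probe set did not pass (0.54 ± 0.63, adjusted p = 0.749). Its differences were 2.10 and 1.51 in experiment 1 but −0.63 and −0.82 in experiment 2. Tgfb3 was the 1 called gene among 11 measured of the TGF-beta pathway (9.09%), in which Smad7, an inhibitor, had −0.27 ± 0.24. Ifng, or interferon gamma, was lower in all 4 differences and did not pass (−1.60 ± 0.48, adjusted p = 0.204).

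Of 14 measured TNF family genes 1 rose and 1 fell (14.3%). Tnfrsf21, death receptor 6, was at the floor in both TCRab CD8ab arrays and at 6.08 to 7.84 in CD8aa (3.20 ± 0.53, at least 9.17-fold, adjusted p = 0.0251). Tnfsf11, the ligand RANKL, was at 8.16 and 8.11 in TCRab CD8ab and at 4.28 to 6.06 in CD8aa (−2.87 ± 0.51, adjusted p = 0.0355). Tnfrsf21 passed only without TCRab CD8ab 1 or TCRgd CD8aa 1 (0.059 to 0.255 otherwise), and Tnfsf11 only without TCRgd CD8aa 2 (0.0878 to 0.196 otherwise). Cytotoxic granule genes, with 13 measured, gave 1 fall (7.69%), that of the granzyme Gzmk (−2.52 ± 0.44, adjusted p = 0.0337). Gzmk was at 9.65 and 11.10 in TCRab CD8ab and at 6.91 to 8.45 in CD8aa, and passed only without TCRgd CD8aa 1 (0.0592 to 0.447 otherwise). The pore-forming Prf1 (0.17 ± 0.38) and the granzymes Gzma (0.06 ± 0.27) and Gzmb (0.23 ± 0.31) did not pass.

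Pkp2, Epcam and Myo6, better known from epithelium, were also higher in CD8aa. They were the called genes among 14 measured of a junction and adhesion list, of which 3 rose (21.4%, against 1.31% called over all probe sets) and 0 fell, with a median of 0.61. Pkp2, plakophilin 2 of desmosomes, was at 9.95 and 11.18 in TCRab CD8aa, 10.02 and 10.81 in TCRgd CD8aa and 6.66 and 7.09 in TCRab CD8ab (3.62 ± 0.26, adjusted p = 0.000458). A second probe set rose by 3.13 ± 0.41 and passed only without TCRab CD8ab 1 or TCRgd CD8aa 2. Epcam, an epithelial adhesion molecule, was at 9.27 and 9.01, 8.45 and 9.44, and 6.25 and 5.25 in the same order (3.30 ± 0.40, adjusted p = 0.00542). Myo6, an unconventional myosin, was at 10.04 and 13.09, 9.72 and 12.98, and 7.30 and 9.15 (3.24 ± 0.31, adjusted p = 0.00212). Another Myo6 probe set rose by 2.87 ± 0.32 (adjusted p = 0.00389), and a further one did not pass (0.92 ± 0.47, 0.436). On every CD8aa array these genes exceeded both TCRab CD8ab arrays, and Myo6 was higher in experiment 2 in all subsets. Of the 3, Epcam lost the call without TCRab CD8aa 1 (0.0528), TCRab CD8aa 2 (0.0544) or TCRab CD8ab 2 (0.104).

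Enterocyte markers varied between the arrays. On TCRab CD8aa 1 and 2 the differences were 3.29 and 4.10 for Pkp2, 3.02 and 3.76 for Epcam and 2.75 and 3.94 for Myo6, and the enterocyte sums were 1960 and 789, against 1920 and 1250 in TCRab CD8ab. Without TCRgd CD8aa 2, the array with the enterocyte sum of 28300, they were 3.66, 3.11 and 3.16. Fabp1, an enterocyte fatty acid binding protein, was at 12.33 on that array and at 7.09 to 8.94 on the others. Other junction genes did not pass, with Cdh1, or E-cadherin, at 0.00 ± 0.30 and Dsp, or desmoplakin, at 0.81 ± 0.28.

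Among enzymes, secreted proteins and other molecules with large changes, Itih5, a matrix protein of the inter-alpha-trypsin inhibitor family, rose by a like amount in both subsets and experiments. It was at 10.82 and 11.35 in TCRab CD8aa, 11.02 and 10.88 in TCRgd CD8aa and 6.34 and 6.58 in TCRab CD8ab. The difference was 4.56 ± 0.24 (adjusted p = 7.93e-05; 0.0198 without the block), and the 4 within-experiment differences ran from 4.30 to 4.77. Adh1, an alcohol and retinol dehydrogenase, was at 12.04 and 9.93, 11.53 and 10.30, and 8.33 and 7.01 (3.28 ± 0.26, adjusted p = 0.000692). Napsa, an aspartic protease, was at 10.90 and 10.35, 11.07 and 10.18, and 6.87 and 7.86 (3.26 ± 0.36, adjusted p = 0.00389). Entpd1, the ectonucleotidase CD39, was at 9.68 and 9.34, 9.52 and 8.54, and 5.37 and 6.83 (3.17 ± 0.47, adjusted p = 0.0163). Tbc1d24 (3.01 ± 0.41, adjusted p = 0.00989) and Vipr2, a receptor for vasoactive intestinal peptide (2.82 ± 0.50, 0.0355), were higher as well. None of the 6 overlapped between groups. Entpd1 passed only without TCRab CD8ab 2 or TCRgd CD8aa 2 (0.0552 to 0.107 otherwise). Tbc1d24 failed without TCRab CD8aa 2, TCRab CD8ab 2 or TCRgd CD8aa 1 (0.055 to 0.158), and Vipr2 failed without any of the 6 arrays (0.0604 to 0.158).

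Lgals1, or galectin-1, fell by a like amount in both subsets and experiments. It was at 10.92 and 10.39 in TCRab CD8ab, 7.97 and 7.56 in TCRab CD8aa and 8.45 and 7.62 in TCRgd CD8aa (−2.75 ± 0.26, adjusted p = 0.00206). Rgs10, which limits G protein signals, was at 10.53 and 9.52 in TCRab CD8ab and at 6.58 to 7.47 in CD8aa (−3.04 ± 0.30, adjusted p = 0.00212). Its brighter probe set had −2.20 ± 0.43 and missed the threshold (0.0501). Penk, the precursor of enkephalins, fell by 3.02 ± 0.56 (0.0408), from 10.41 and 8.22 in TCRab CD8ab to 5.74 to 6.99 in CD8aa. A second Penk probe set did not pass (−1.69 ± 0.84, adjusted p = 0.43), with −2.62 and −3.11 in TCRab CD8aa but −0.22 and −0.81 in TCRgd CD8aa. Abcb1b, a drug efflux pump, fell by 3.04 ± 0.58 (0.043), and Gramd3 by 4.33 ± 0.62 (0.0134), each with 1 CD8aa array at the floor. Another Gramd3 probe set did not pass (−2.49 ± 0.63, adjusted p = 0.128). Penk passed only without TCRgd CD8aa 2 (0.0678 to 0.172 otherwise). Abcb1b did not pass without any CD8aa array (0.059 to 0.126), and Gramd3 did not without TCRab CD8aa 1 (0.0616). Dusp2, a phosphatase of MAP kinases, was the 1 called gene of 24 measured immediate early genes, or 4.17% (−1.67 ± 0.24, 0.0134) and passed only without TCRgd CD8aa 2 (0.0558 to 0.0869 otherwise).

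Some called genes outside the rule for naming are given next, chosen after their values were seen. Their adjusted p ran from 0.00529 to 0.0471 in limma with the block, and most did not withstand the loss of single arrays. Of the 58 called probe sets outside the rule, 5 passed with each array left out in turn, 7 stayed called without TCRab CD8ab 2 and 10 without either TCRab CD8aa array. Among those higher in CD8aa were the protease Htra3 (2.80 ± 0.48), the oxysterol-binding protein Osbpl5 (2.69 ± 0.35), the myosin Myo1e (2.67 ± 0.44), the phosphatase Ptpn5 (2.54 ± 0.49) and the septin Septin4 (2.49 ± 0.40). Ddc, which makes dopamine and serotonin from their precursors, was at 11.34 to 12.11 in CD8aa and at 9.72 and 9.06 in TCRab CD8ab (2.44 ± 0.30, adjusted p = 0.00529). Mcam, the adhesion molecule CD146, was at 9.66 to 10.99 against 8.14 and 7.92 (2.33 ± 0.28, adjusted p = 0.00529). Gcnt1, which builds branched O-glycans of surface proteins, rose by 1.96 ± 0.32, and Pkp4, a relative of Pkp2, by 1.48 ± 0.21. Max, the partner of Myc, rose by 1.27 ± 0.20, with 12.47 to 12.75 against 11.41 and 11.23. Of these genes Mcam passed with each array left out. Ddc failed without TCRab CD8aa 2 (0.0544) or TCRab CD8ab 2 (0.0741), and Osbpl5 failed without either TCRab CD8aa array or TCRab CD8ab 2 (0.0532 to 0.11). Myo1e, Septin4, Gcnt1 and Max passed only without TCRgd CD8aa 2, Ptpn5 only without TCRab CD8ab 2, Htra3 without TCRab CD8ab 2 or TCRgd CD8aa 2 only, and Pkp4 only without TCRab CD8ab 1 or TCRgd CD8aa 2.

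Among the other genes lower in CD8aa were Ms4a6b (−2.45 ± 0.37) and Ms4a6c (−1.67 ± 0.30), membrane proteins of one family, and Kcnn4, a calcium-activated potassium channel of activated T cells (−2.44 ± 0.36). Kcnn4 was at 9.46 and 8.97 in TCRab CD8ab and at 5.98 to 7.27 in CD8aa, with no overlap. Ramp3, which modifies peptide receptors, fell by 1.85 ± 0.28 and the metalloprotease Adam19 by 1.56 ± 0.27. Slfn2, a schlafen gene tied to T cell quiescence, fell on 2 probe sets, by 1.17 ± 0.21 and 1.44 ± 0.26. The tubulin Tubb5 fell by 1.45 ± 0.23 on 1 probe set and did not pass on another (−1.21 ± 0.24, adjusted p = 0.0501). The ribosomal protein Rpl13a fell by 1.39 ± 0.24. Bag3, a partner of heat shock chaperones, fell by 1.26 ± 0.23 on 1 probe set, while the other did not pass (−0.59 ± 0.49, adjusted p = 0.63). For Ramp3, Ms4a6c, Slfn2, Rpl13a and the called Bag3 probe set the CD8aa arrays were lower within each experiment but overlapped TCRab CD8ab across experiments. Ms4a6b, Kcnn4 and Ramp3 passed only without TCRgd CD8aa 2, Adam19 and the first Slfn2 probe set only without TCRab CD8ab 1, and Tubb5 only without TCRgd CD8aa 2 or TCRab CD8ab 1. Ms4a6c, Rpl13a, Bag3 and the second Slfn2 probe set did not pass without any of the 6 arrays (0.0545 to 0.365, 0.0541 to 0.29, 0.0545 to 0.236 and 0.052 to 0.329).

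**Figure D3:**
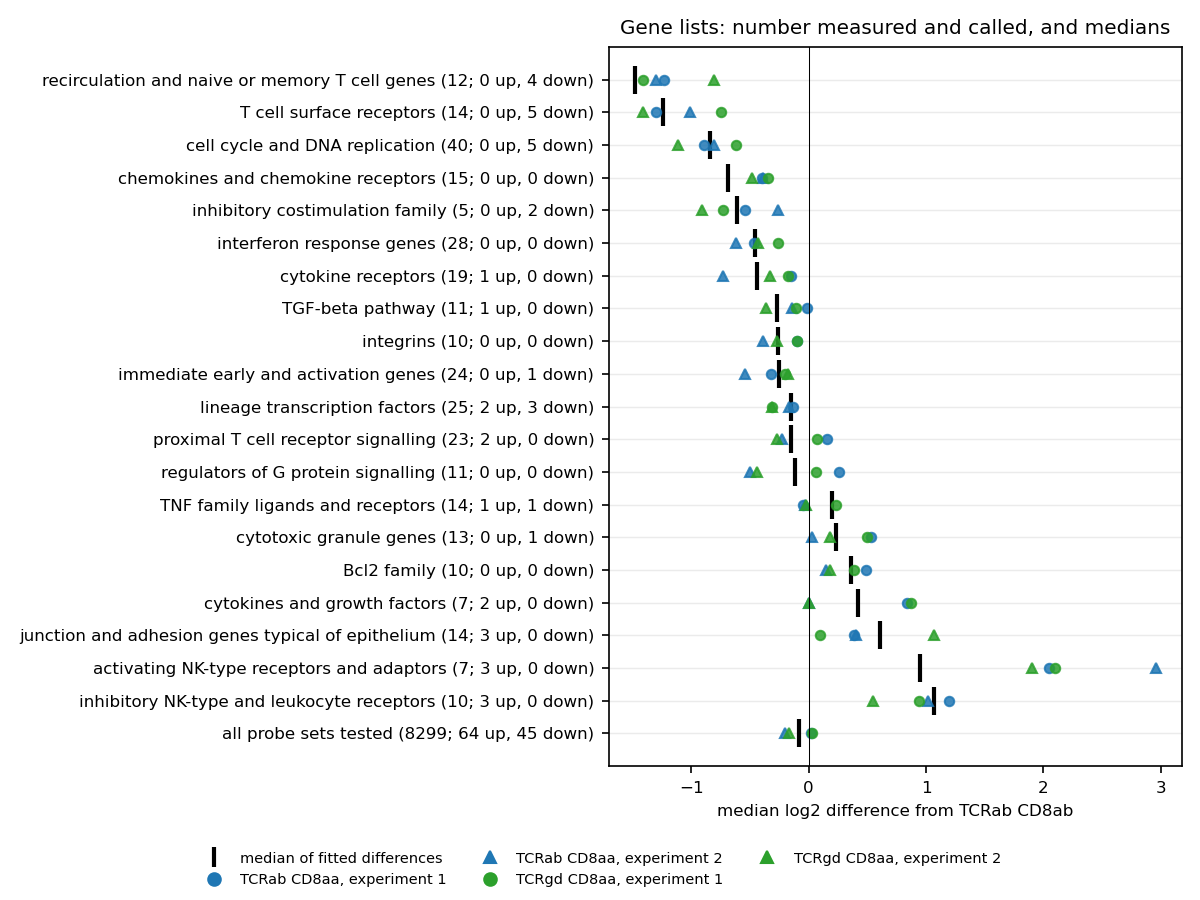
Median log2 difference from TCRab CD8ab of each gene list (rows; number of genes measured and called in each direction in brackets). Black bars are medians of the fitted differences, and points are medians of the single within-experiment differences. The recirculation and T cell surface lists lie lowest, at −1.48 and −1.24, and both NK-type lists highest, at 0.95 and 1.07, with all probe sets at −0.08.

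Of 40 measured cell cycle and DNA replication genes, 5 fell (12.5%, against 1.31% called over all probe sets) and 0 rose. The other 35 did not pass, and 33 of the 40 had 4 differences below 0 and 1, the cyclin Ccnd2, was higher in all 4 (0.76 ± 0.26, adjusted p = 0.25). The median was −0.84. Over all probe sets 18.3% were lower in all 4 differences. The genes that fell were Cdk1, the mitotic kinase, Top2a, a topoisomerase of dividing cells, Kif11, a spindle motor, Ccnb2, a partner of Cdk1, and Stmn1, a microtubule destabiliser. Cdk1 was at 9.28 in TCRab CD8ab against 7.77 and 7.82 in CD8aa in experiment 1, and at 10.23 against 8.64 and 8.30 in experiment 2 (−1.62 ± 0.26, adjusted p = 0.0205). Top2a was at 9.34 against 8.05 and 8.13, and at 11.76 against 10.21 and 9.80 (−1.50 ± 0.25, 0.0251). CD8aa was thus the lower in each experiment, while the level of Top2a was higher in experiment 2 and its groups overlapped across experiments.

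The others had −1.46 ± 0.28 for Kif11 (0.0482), −1.35 ± 0.24 for Ccnb2 (0.0333) and −1.30 ± 0.24 for Stmn1 (0.0407). Each of the 5 calls was sensitive to single arrays. Kif11 and Stmn1 did not pass without any of the 6 (0.0548 to 0.409 and 0.0645 to 0.316). Cdk1 passed only without TCRgd CD8aa 2 (0.0502 to 0.236 otherwise), and Top2a and Ccnb2 only without TCRab CD8ab 1 (0.0572 to 0.268 and 0.0643 to 0.29 otherwise). Mki67, the proliferation marker Ki-67, had −1.05 ± 0.23 (0.0799), and Rrm2, a subunit of ribonucleotide reductase, −1.68 ± 0.37 (0.0814). Pcna (−0.10 ± 0.22) and Mcm4 (−0.10 ± 0.25), of the replication machinery, were close to 0. Kif23 (−1.61 ± 0.24, 0.0163) and Pclaf (−1.55 ± 0.29, 0.0408), which also act in division and replication, were called and were named after their values were seen. Kif23 passed only without TCRgd CD8aa 2 (0.0559 to 0.104 otherwise), and Pclaf did not pass without any array (0.0783 to 0.144).

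**Figure D4:**
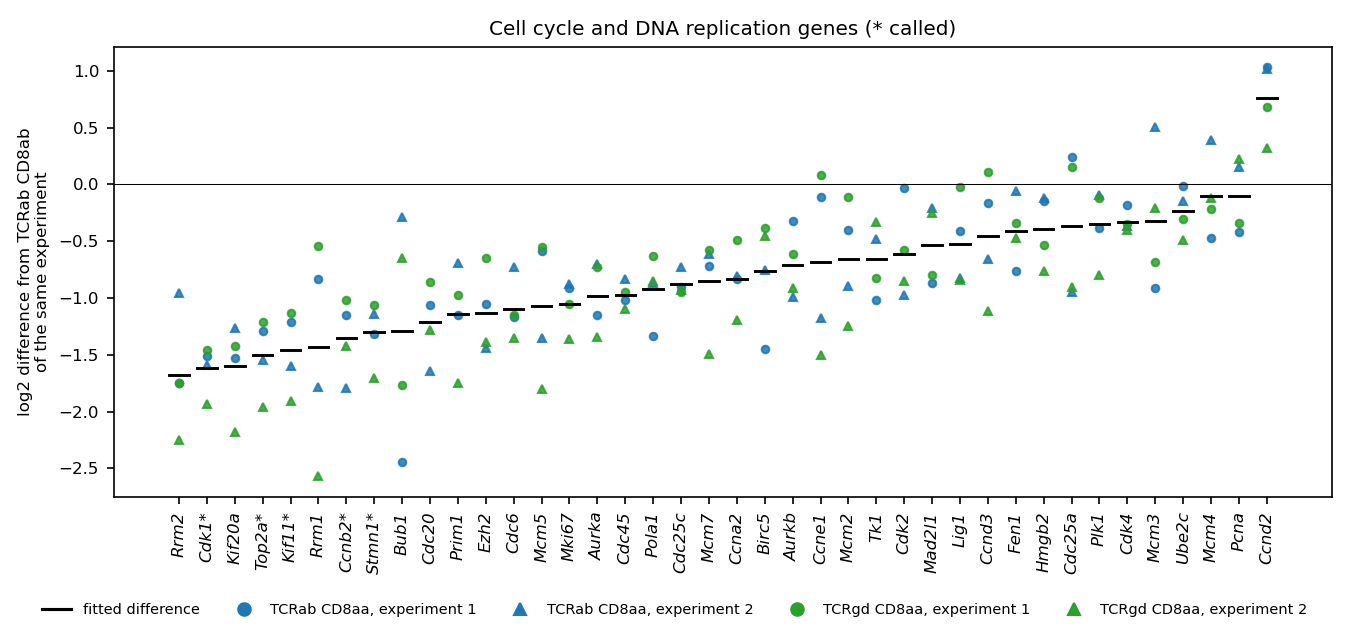
Within-experiment log2 differences from TCRab CD8ab for the 40 measured cell cycle and DNA replication genes (blue TCRab CD8aa, green TCRgd CD8aa; circles experiment 1, triangles experiment 2; black bar, fitted difference; asterisk, called). For 33 genes all 4 points lie under 0, and the fitted differences run from −1.68 for Rrm2 to 0.76 for Ccnd2.

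Promoters of mitotic genes are known for CCAAT boxes and for the cell cycle genes homology region, TTTGAA. The 4 called cell cycle genes with an entry are printed because they moved together, as the 250 bases before the transcription start from RefSeq (GRCm38.p6), 5′ to 3′ on the strand of the gene, with each match to CCAAT or TTTGAA on either strand in capitals (ATTGG and TTCAAA are the reverse strand). Stmn1 is not printed.
Cdk1 (chr10:69352913-69353162, minus strand): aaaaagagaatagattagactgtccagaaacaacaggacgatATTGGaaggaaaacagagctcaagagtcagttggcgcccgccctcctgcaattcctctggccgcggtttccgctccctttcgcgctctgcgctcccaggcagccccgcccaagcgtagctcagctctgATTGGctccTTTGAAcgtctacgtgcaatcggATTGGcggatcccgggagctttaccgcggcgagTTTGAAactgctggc
Ccnb2 (chr9:70421555-70421804, minus strand): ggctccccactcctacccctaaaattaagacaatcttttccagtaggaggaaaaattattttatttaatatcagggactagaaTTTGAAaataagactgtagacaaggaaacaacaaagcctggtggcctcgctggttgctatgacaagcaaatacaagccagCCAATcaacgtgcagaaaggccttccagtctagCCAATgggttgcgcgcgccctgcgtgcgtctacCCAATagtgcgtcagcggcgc
Top2a (chr11:99024190-99024439, minus strand): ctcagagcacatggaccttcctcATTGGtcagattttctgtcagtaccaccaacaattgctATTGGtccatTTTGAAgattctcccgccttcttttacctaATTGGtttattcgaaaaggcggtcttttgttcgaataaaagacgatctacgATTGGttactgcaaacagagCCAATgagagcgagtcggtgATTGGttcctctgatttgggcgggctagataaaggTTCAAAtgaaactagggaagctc
Kif11 (chr19:37376132-37376381, plus strand): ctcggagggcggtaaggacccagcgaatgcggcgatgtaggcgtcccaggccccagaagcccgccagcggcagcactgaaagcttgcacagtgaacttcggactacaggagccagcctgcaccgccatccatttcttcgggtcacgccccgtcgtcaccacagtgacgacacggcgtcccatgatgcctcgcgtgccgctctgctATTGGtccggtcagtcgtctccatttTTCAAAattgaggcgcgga

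All 4 windows held both motifs, with the CCAAT nearest the start beginning 48, 21, 58 and 45 bases before it in Cdk1, Ccnb2, Top2a and Kif11. Over the 33 measured cell cycle genes with a promoter, 24 held CCAAT (72.7%) and 11 TTTGAA (33.3%). Among 4925 genes with a tested probe set the shares were 36.5% and 10.9%, and among 27025 promoters in all 34.5% and 16.3%. Of all called genes, CCAAT was in 14 of 45 promoters of genes higher in CD8aa (31.1%) and in 13 of 32 of genes lower (40.6%). TTTGAA was in 11.1% and 25%. A further 4 motifs were searched in the same windows, on both strands. GGAAG, the core of ETS sites, was in 68.9% of promoters of genes higher, 71.9% of genes lower and 68.5% of those tested. CACCC, known from KLF sites, was in 60%, 68.8% and 57.7%. TGTGGT, known from RUNX sites, was in 11.1%, 9.38% and 11.1%, and TATAAA in 13.3%, 9.38% and 7.61%. These are matches to letters and say nothing of binding.

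Other lists had no called member on their brightest probe sets. Against 18.3% lower and 13.6% higher in all 4 differences over all probe sets, interferon response genes had 11 lower and 0 higher of 28 measured. Their median was −0.46. The 2 of smallest p were Iigp1, an immunity-related GTPase that was at the floor on all 4 CD8aa arrays (−2.98 ± 0.64, adjusted p = 0.0722), and Ifit3, an antiviral effector (−2.60 ± 0.58, 0.084). Irgm2, another GTPase of this kind and not in the list, was called as higher by 1.25 ± 0.23 (0.0401), passed only without TCRgd CD8aa 2 (0.0825 to 0.173 otherwise), and was singled out after its value was seen. Chemokines and their receptors had a median of −0.69 over 15 genes, with Ccr9, the small intestinal homing receptor, at −1.15 ± 0.28 (0.116) and Ccrl2, an atypical chemokine receptor, at 1.53 ± 0.31 (0.0543). Integrins had −0.26 over 10 genes, with Itgal, the chain of LFA-1, at −2.31 ± 0.52 (0.0837) and Itgav at 1.22 ± 0.24 (0.0512). Bcl2 family genes had 0.36 over 10, with the survival factor Bcl2l1 at 1.23 ± 0.42 (0.26) and the death factor Bcl2l11 at 0.84 ± 0.25 (0.211). Regulators of G protein signalling had −0.12 over 11.

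Genes with several probe sets mostly gave a single direction. Of 18 called genes with at least 2 tested probe sets, 6 had at least 2 called, namely Cd6, Klf3, Lat2, Myo6, Pkp2 and Slfn2. For 17 of the 18 the fitted differences of all probe sets were in the called direction. Single differences of a probe set that was not called went the other way for Bag3, Emp3, Pcyt1a and Tgfb3 among these 17. The exception among the 18 was Ighm, the mu heavy chain, with 1 probe set higher by 1.61 ± 0.26 (adjusted p = 0.0246, and 0.0606 to 0.263 without any array but TCRgd CD8aa 2) and others at −0.90 to 1.10. A further 27 probe sets of 17 called genes fell under the filter and were not tested. Of these, 1 had all 4 differences in the called direction and 2, both of Ighm, had all 4 against it. Beside Ighm, the B cell markers Cd79a (−0.93 ± 0.52) and Ms4a1 (−0.59 ± 0.55) did not pass. Genes that met the same-sign rule with all 4 differences of at least 2 numbered 44 probe sets, of which 40 were called. The 4 that were not were Sh2d1a, Iigp1, Eomes and Dhrs3 (−2.38, adjusted p = 0.105).

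The 2 CD8aa subsets were also set against each other, again by limma with the experiment as a block. The difference TCRgd CD8aa minus TCRab CD8aa passed for 2 of 8299 probe sets (0.0241%), with 172 (2.07%) at unadjusted p under 0.05. Neither carries a single gene symbol here and neither is among the 109. The count was 0 without the block (smallest adjusted p = 0.788), 1 without either TCRab CD8aa array, 112 without TCRgd CD8aa 1 and 5 without TCRgd CD8aa 2, where the lone array of the subset was assumed to vary like the others. For the 109 this difference is given as a description only, because a large difference between the subsets widens the SE by which the 109 were called. Its size exceeded 1 for 5 of them, those of Cd2 (−2.73 ± 0.61), Zbtb16 (−1.73 ± 0.52), Klra5 (−1.30 ± 0.44), Thy1 (1.23 ± 0.36) and Klf3 (1.10 ± 0.61). A p that misses the threshold with 2 arrays per subset does not show that the subsets were alike.

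**Figure D5:**
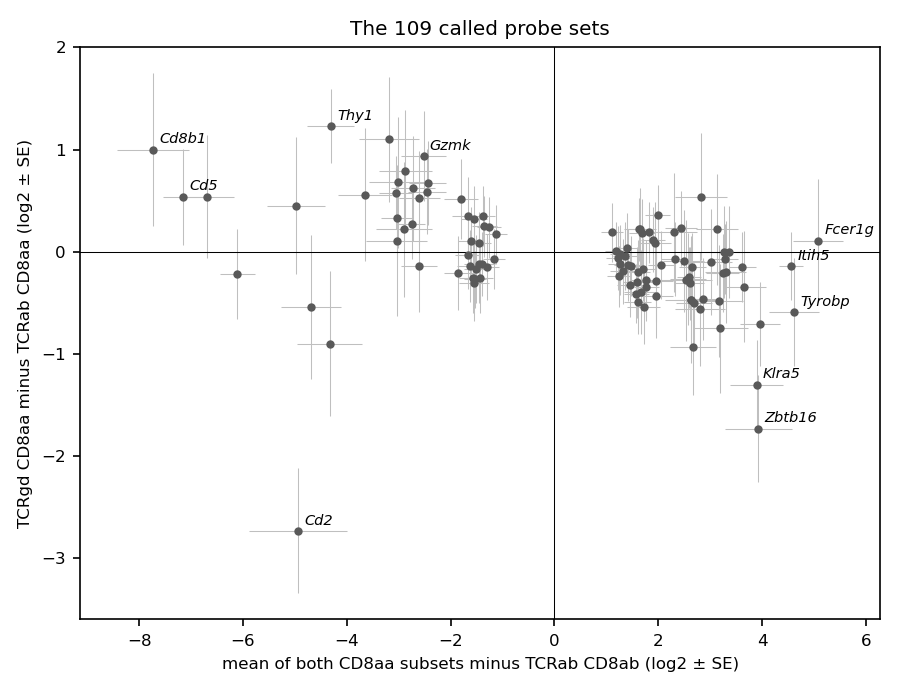
Common difference of both CD8aa subsets from TCRab CD8ab (x axis) against the difference between the subsets, TCRgd CD8aa minus TCRab CD8aa (y axis), in log2 with SE bars, for the 109 called probe sets, a choice that favours small differences between the subsets. Most points lie within 1 of the horizontal line at 0, with Cd2 at −2.73 and Zbtb16 at −1.73 as the farthest below it.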

How the data were processed

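Messenger RNA of 3 sorted small intestinal IEL subsets was measured on 6 Affymetrix arrays. Per the submitters' processing notes the authors used MAS5 (version not given), and the deposited values are signal intensity, 1 per probe set and array, on a linear scale. Each array was rescaled to a common 2% trimmed mean (500.4 on all arrays as deposited). Values were floored at the 20th percentile (signal 15.3) before log2 was computed. Of 12488 probe sets, 66 of them controls, 10833 carried 1 gene symbol, 396 several and 1193 had no entry. Probe sets with at least 2 arrays above the 40th percentile (signal 56.4) were tested, which left 8299, for 6109 genes.

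limma 3.58.1 (R 4.3.3; lmFit and eBayes with an intensity trend) compared CD8aa with TCRab CD8ab, with the experiment as a block and Benjamini-Hochberg adjustment over all 8299. A model with 3 subsets gave the difference between the CD8aa subsets. The numbers pair the arrays because all subsets of an experiment came from the same pool of mice, and residuals of same-numbered arrays correlated at 0.603 to 0.713. P-values rest on the spread between arrays left after the block, not on that between mice. For CD8aa against TCRab CD8ab, that spread mixes the difference between the CD8aa subsets with the variation of subset differences between experiments. CD8aa arrays of an experiment came from the same pool but were counted as separate arrays, so these p-values do not measure a spread between pools alone. No pair of arrays shared more than 45 equal values. The script was tested on simulated data.

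Gene lists were measured by the brightest probe set of each gene. Named genes were, among called probe sets with 1 symbol and 4 differences of the same sign, the 15 largest in each direction (no sort marker counted), every called list member, the 2 of smallest p where a list had none, the sort markers, and genes called between the CD8aa subsets. The comparison, the members and the lists were chosen with earlier results of these data known. Alternatives were other normalization, floors, filters and variance models, no block, each array left out, and, added after seeing the data, each experiment alone. Genes singled out after their values were seen were followed only with each array left out. Promoters came from RefSeq and the first listed window of a gene was used.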

Additional observations from a re-analysis of the deposited data

Results flagged for a closer look

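In 51 called probe sets described by name, the 4 CD8aa arrays were checked for 1 array far from the others, and 2 were found. Chance gives about 1 in 20. Klrb1a was at log2 12.31 on TCRab CD8aa 2, where the other CD8aa arrays were at 10.89 to 11.07. Klf2 was at 5.18 on TCRab CD8aa 1, where the others were at 4.10 or at the floor of 3.94. Both genes kept their direction on every CD8aa array, as the rule for naming them required.

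The 2 CD8aa subsets differed, by the limma test of that difference with the block, at probe sets that carry no single gene symbol here. The first was higher in TCRgd CD8aa than in TCRab CD8aa by 5.95 (adjusted p = 0.000108), and the other was lower by log2 −4.46 (adjusted p = 0.0383). Neither difference passed without the block.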

How the results depend on the processing

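The fit without the replicate block, which ignores that each experiment shared a pool of mice, called 2 probe sets in place of 109 for CD8aa against TCRab CD8ab, 0 in place of 39 list members (smallest adjusted p of any probe set 0.0198, 323 at unadjusted p under 0.05), and 0 in place of 2 between the CD8aa subsets (34 at unadjusted p under 0.05). Without the intensity trend these counts were 29, 15 and 1, and without the filter on dim probe sets 0, 0 and 0 (1237 and 380 probe sets at unadjusted p under 0.05 in the first and last comparison). Quantile normalization gave 1 between the subsets, an adjusted p under 0.10 gave 194 for the main comparison, and experiment 2 alone, where the only spread was between 2 CD8aa arrays, gave 16 and 7 list members. Leaving out each array in turn gave 28 to 154 probe sets, 10 to 36 list members, and 1 to 112 between the subsets. The 2645 probe sets with 4 differences of the same sign became 184 when each had to reach 1, and 955 when the groups had not to overlap. Other floors, scaling, a filter at the 60th percentile, 3 subset levels and a random block gave 83 to 130 probe sets in the main comparison. Over 943 alternative values of the 51 called named probe sets, 0 changed sign and 338 no longer passed, while 38 of the 51 passed under each of the last settings. Where the log2 values stayed the same no sign could change, because all 4 differences of these probe sets had the same sign. Causes were not tested.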
